A study of Homo sapiens with 16 samples.

Results

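The 10 genes described here belong to the NF-kB system: the subunit genes NFKB1, NFKB2, RELA and RELB, the inhibitor genes NFKBIA, TNFAIP3 and BIRC3, and the secreted cytokines IL6, LIF and CXCL1. They were chosen by symbol, 10 of the 26485 genes listed in the total RNA count files. All 10 also appear in the ribosome footprint files of at least 1 library, and 7 of them in all 8. The cells were MDA-MB-231, an established human breast cancer line, given in the labels as a xenograft cell line with no treatment. The study asked about ribosome occupancy when the balance of isoleucine tRNAs is shifted.

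Every group carried a CRISPRi guide, which directs a silencing protein to a promoter, and an expression construct. Control cells had a guide against eGFP, a sequence from outside the human genome, and a control construct. Construct cells had the eGFP guide and a construct for tRNA-Ile-UAU. Knockdown cells had a guide against tRNA-Ile-GAU and the control construct, and double-modulated cells had the GAU guide with the tRNA-Ile-UAU construct. Each of these 4 conditions had 2 footprint libraries (ribosome-protected fragments) and 2 total RNA libraries, 16 libraries in all. The labels do not say whether the GAU guide cells were 1 clone or a population, so an effect of the guide and a property of the cells that carry it cannot be told apart. Nor do they say that the 2 libraries of a group came from separate cultures, so p-values measure the spread between these libraries only, which may be technical.

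NF-kB factors are dimers built from the subunits encoded by NFKB1, NFKB2, RELA, RELB and REL. In resting cells they are held back by IkB proteins such as IkB-alpha, the product of NFKBIA, or as long precursors. Receptors of the tumour necrosis factor and interleukin 1 families lead to kinases that remove the inhibitor or process the precursor, and the dimers then enter the nucleus and raise the transcription of cytokines, survival genes and their own inhibitors. MDA-MB-231 cells are known for constitutive NF-kB activity and for secreting interleukin 6.

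The promoters of most of these genes carry the sequence that such dimers bind. RefSeq promoter windows (GRCh38.p14, the 250 bases before the start) were on hand for 8 of the 10 genes, not for RELB and LIF, and were searched on both strands for the classical 10-base NF-kB consensus, the only motif searched. A gene with several starts in that table has a window at each, and NFKB2 has 3. A match was found in 7 of the 8, all but RELA, against 11.8% of the 27305 genes with a window. The members include well-known targets of the factor, so this share describes the choice of genes. The match nearest to a start is printed below for each of the 7 genes that had one. It is given 5′ to 3′ on the gene's own strand, in capitals within 30 bases.
NFKB1 (chr4:102501300-102501329, plus strand): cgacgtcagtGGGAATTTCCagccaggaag
NFKB2 (chr10:102395674-102395703, plus strand): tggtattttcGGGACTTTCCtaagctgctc
NFKBIA (chr14:35404811-35404840, minus strand): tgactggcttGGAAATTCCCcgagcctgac
TNFAIP3 (chr6:137867194-137867223, plus strand): aaagtcccgtGGAAATCCCCgggcctacaa
BIRC3 (chr11:102317339-102317368, plus strand): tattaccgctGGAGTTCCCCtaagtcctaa
IL6 (chr7:22727117-22727146, plus strand): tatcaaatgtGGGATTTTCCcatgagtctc
CXCL1 (chr4:73869305-73869334, plus strand): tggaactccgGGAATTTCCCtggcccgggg
These matches lie 21 bases (NFKB2) to 135 bases (BIRC3) before the start of their window's transcript. That of NFKB2 is the most downstream of its 3 starts, inside the gene, and the window at its most upstream start had no match. The TNFAIP3 match also lies inside the gene as listed (chr6:137866349-137883312), so it is not before the gene's first base. The more downstream window of NFKB1 had no match. A match is a description of the letters, and no binding was measured here.

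Depth on genes was 358340 to 607919 reads in the 4 footprint libraries of the eGFP guide, less than the 639320 to 938909 reads in each of those of the GAU guide. Libraries of total RNA had 2512247 to 5446599 reads on genes. In total RNA, the pair of double-modulated libraries stood apart: their counts differed with a chi-square of 15.0 per gene, against 1.37 to 2.41 in the other RNA pairs and 1.15 to 1.67 in the footprint pairs. All 6 markers of MDA-MB-231 cells, vimentin among them, had counts, with sums of 15755 to 18704 CPM (a gene's count as a share of the library's counts on genes, scaled to 1000000) in footprints and 3868 to 4272 CPM in total RNA. Of the markers of other cell types, the T and B cell genes CD3E and MS4A1, the fibroblast gene DCN and the endothelial gene CDH5 were at 0 in both assays, and the luminal gene ESR1 was at 0 in footprints. Other markers on these lists had counts: in footprints 7 of 8 luminal, 5 of 7 immune, 4 of 6 fibroblast and 4 of 5 endothelial genes. Their summed levels ran over the libraries from 518 to 624, 132 to 185, 13.2 to 27.9 and 2.79 to 12.1 CPM in footprints and from 300.5 to 529, 8.33 to 35.1, 4.38 to 14.6 and 7.57 to 14.6 CPM in total RNA. Their part in the results below was not tested. Levels below are CPM. They are not per length, so they are compared between libraries of 1 gene and not between genes. Where libraries of 1 condition are said to lie above or below others, the share of all genes doing so was not computed.

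The results in brief are these. No member that could be tested passed the threshold with either tRNA manipulation in footprints, in total RNA or in translational efficiency. For NFKB1, NFKB2, RELA and NFKBIA footprints, the 95% intervals put the double modulation between 0.585 and 1.52-fold of control. BIRC3 had steady RNA in all 8 RNA libraries and almost no footprints. The 3 other pathway genes that passed the test, TNFRSF12A, MAP3K14 and PLAU, had fewer footprints with the GAU guide or the double modulation; they are 2 of 44 tested for the guide (4.55%, against 2.68% of all genes) and 1 of 44 for the double modulation (2.27%, against 1.93%). None of the 3 lies on chromosome 7, whose genes were lower with the GAU guide as a group. With that chromosome's genes left out, 106 of 7772 genes were called in footprints for the guide and 98 for the double modulation. DESeq2 did not call TNFRSF12A and MAP3K14, and none of the 3 passed with the footprint libraries thinned to equal depth. In bulk samples like these, fewer cells making a gene and less RNA per cell cannot be told apart.

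**Figure D1:**
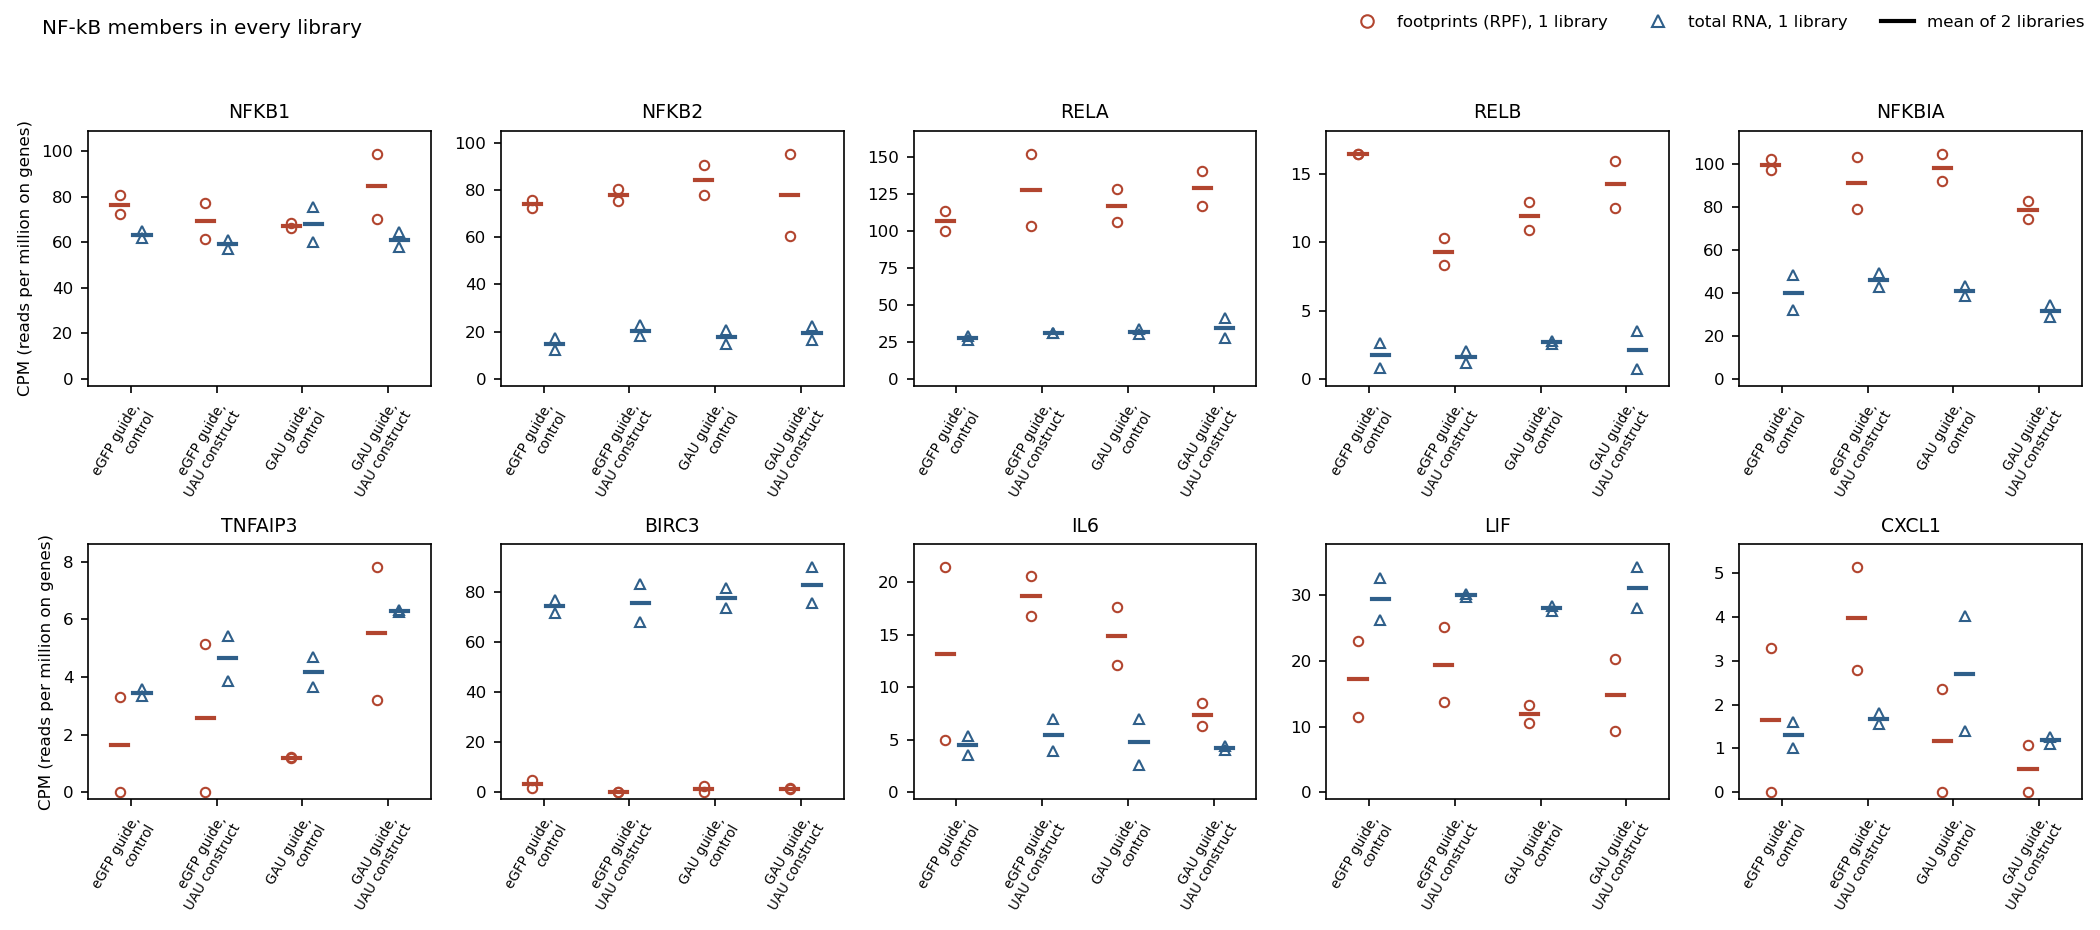
CPM of each of the 10 genes (vertical axis, a linear scale of its own in each panel) by condition, with 1 circle per footprint library, 1 triangle per total RNA library and a bar at the mean of 2 libraries. Libraries of conditions next to each other in mean overlap for most genes. In footprints, those of the lowest and highest condition of a gene, picked by their means, do not. Picking by the means favours such a gap, and the share of all genes with one was not computed. TNFAIP3, BIRC3 and CXCL1 had at most 5 footprint reads in any library. Footprints lie above total RNA for NFKB2, RELA, RELB and NFKBIA, and BIRC3 has 68.0 to 90.1 CPM of RNA with 0 to 4.93 CPM of footprints.

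RELA (chr11:65653601-65663857) encodes p65, the subunit that carries the main transactivation domain of the canonical dimer. Its footprints were 100 and 114 CPM in control cells, 103 and 153 in construct cells, 128 and 106 in knockdown cells and 117 and 141 in double-modulated cells. Its total RNA was 26.7 and 29.2 CPM in control cells, 31.3 and 31.3 in construct cells, 33.5 and 30.2 in knockdown cells and 41.3 and 27.5 in double-modulated cells. Both double-modulated footprint libraries were above both controls, a split not counted over all genes. The RNA libraries of these groups overlapped. The fitted difference of the double modulation from control was 0.23 ± 0.19 (log2, SE) in footprints, a fold with a 95% interval of 0.909 to 1.52, and edgeR's quasi-likelihood test gave it an adjusted p of 0.696.

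NFKB1 encodes p105, the precursor of p50, RELA's usual partner. Its footprints were 72.4 and 80.9 CPM in control cells, 61.4 and 77.1 in construct cells, 68.3 and 66.5 in knockdown cells and 99.1 and 70.4 in double-modulated cells. Its RNA stayed between 57.2 and 75.6 CPM in the 8 libraries, a spread of 1.32-fold. The double-modulated pair held the highest footprint value of the 8 and a value below both controls. The double modulation was at 0.16 ± 0.21 from control in footprints and -0.06 ± 0.14 in RNA (log2, SE).

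NFKB2 encodes p100, the precursor of p52 and the substrate of the noncanonical branch. Its footprints were 72.4 and 75.9 CPM in control cells, 75.3 and 80.6 in construct cells, 77.7 and 90.6 in knockdown cells and 60.7 and 95.4 in double-modulated cells. Total RNA ran from 12.3 to 22.8 CPM, with 17.5 and 12.3 in control cells and 22.6 and 16.7 in double-modulated cells. The double-modulated pair of footprint libraries held both the lowest and the highest value of the 8, and its fitted difference from control was 0.01 ± 0.22 (log2, SE).

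RELB (chr19:45001464-45038192) encodes the partner of p52 in the noncanonical dimer, and it was scarce. Its footprints were 16.4 and 16.5 CPM in control cells, 8.37 and 10.3 in construct cells, 12.96 and 10.9 in knockdown cells and 15.98 and 12.5 in double-modulated cells, on 3 to 15 reads per library. Both control libraries were above the other 6, a split not counted over all genes. The difference of construct cells from control, -0.78 ± 0.61 (log2, SE), had an interval of 0.254 to 1.33-fold and an adjusted p of 0.990 by edgeR. In total RNA RELB had only 2 to 19 reads per library (0.757 to 3.49 CPM) and did not pass the filter on low counts. REL, the remaining subunit gene, had 18.95 to 23.5 CPM of RNA and 27 footprint reads over the 8 libraries, too few for a test.

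NFKBIA encodes IkB-alpha, the inhibitor that is degraded and then made again as a target of NF-kB. Its footprints were 97.1 and 102 CPM in control cells, 103 and 78.9 in construct cells, 105 and 91.8 in knockdown cells and 74.6 and 82.9 in double-modulated cells. Total RNA was 31.8 and 48.2 CPM in control cells, 49.1 and 42.7 in construct cells, 43.4 and 38.6 in knockdown cells and 28.6 and 34.3 in double-modulated cells. The double-modulated pair was below both controls in footprints, a split not counted over all genes, and overlapped them in RNA. The fitted differences from control were -0.37 ± 0.20 in footprints and -0.36 ± 0.22 in total RNA (log2, SE), with adjusted p values of 0.469 and 0.784 by edgeR. Without control RNA replicate 2 the RNA difference was -0.02 and without replicate 1 it was -0.63. The footprint value had the lowest adjusted p of any member in any comparison.

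TNFAIP3 encodes A20, a ubiquitin-editing enzyme that ends signalling from the receptors. Its total RNA was 3.58 and 3.32 CPM in control cells, 3.86 and 5.43 in construct cells, 3.65 and 4.68 in knockdown cells and 6.24 and 6.31 in double-modulated cells, on 9 to 34 reads per library. Both double-modulated libraries were above the other 6, a split not counted over all genes. The difference from control was 0.85 ± 0.36 (log2, SE), an interval of 1.03 to 3.15-fold. Its unadjusted p of 0.0390 was the only one under 0.05 among the members, and its adjusted p over all genes was 0.630 (edgeR). Footprints of TNFAIP3 numbered 15 in all, 8 of them in the double-modulated libraries, and were not tested. They were 0 and 3.30 CPM in control cells, 0 and 5.14 in construct cells, 1.18 and 1.21 in knockdown cells and 3.20 and 7.82 in double-modulated cells. The lower double-modulated value was below control replicate 2 and construct replicate 2. In the 2 libraries without a TNFAIP3 footprint, 1 of the control and 1 of the construct cells, a count of 0 allows up to 4.93 and 8.37 CPM.

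IL6 encodes interleukin 6, which signals through IL6ST to STAT3. Its footprints were 4.93 and 21.5 CPM in control cells, 16.7 and 20.6 in construct cells, 17.7 and 12.1 in knockdown cells and 8.52 and 6.26 in double-modulated cells, on 3 to 15 reads per library. The 2 control libraries held the lowest and the highest value of the 8. The double modulation was at -0.80 ± 0.60 from control (log2, SE; 0.252 to 1.31-fold; adjusted p 0.655), and the interaction of guide and construct at -1.49 ± 0.78 (unadjusted p 0.0535, adjusted p 0.878; edgeR). Without control replicate 2 the footprint difference of the double modulation turned to 0.59 and the interaction to -2.87; without control replicate 1 the interaction was at -0.78. IL6 RNA ran from 2.58 to 6.96 CPM with the conditions overlapping.

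IL6 lies on chromosome 7, whose genes were lower with the GAU guide as a group. Of the 371 chromosome 7 genes tested in footprints, 342 were lower with the GAU guide than with the eGFP guide, averaged over constructs, with a median of -0.39 (log2) against 0.02 elsewhere. In total RNA 516 of 553 were lower, with a median of -0.37 against 0.03. IL6 itself was at -0.58 ± 0.39 in footprints and -0.16 ± 0.37 in RNA, so its intervals hold both 0 and the chromosome's median. The part of the chromosome in IL6's values was not tested.

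LIF (chr22:30240453-30246759) encodes leukaemia inhibitory factor, another ligand of IL6ST, here together with LIFR. Its total RNA stayed between 26.3 and 34.3 CPM in the 8 libraries. Its footprints were 11.5 and 23.1 CPM in control cells, 25.1 and 13.7 in construct cells, 10.6 and 13.3 in knockdown cells and 20.2 and 9.38 in double-modulated cells. Footprint libraries of neighbouring conditions in the order of the means overlapped in 3 of 3 steps. Those of the lowest condition, the knockdown, did not overlap those of the highest, the construct, a split not counted over all genes. The guide difference over both constructs was -0.38 ± 0.35 in footprints and -0.02 ± 0.13 in RNA (log2, SE).

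CXCL1, a chemokine that draws neutrophils, had 9 footprint reads and 46 RNA reads over all libraries. Its RNA was 1.59 and 0.997 CPM in control cells, 1.55 and 1.81 in construct cells, 4.01 and 1.40 in knockdown cells and 1.10 and 1.26 in double-modulated cells. The highest value was that of a single knockdown library. Neither assay passed the filter, and 3 of the 8 footprint libraries had no read of it, which allows 3.62 to 4.95 CPM in each.

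BIRC3 encodes cIAP2, a ubiquitin ligase that marks the kinase NIK for degradation and is also a classical NF-kB target. Its total RNA was 76.8 and 71.8 CPM in control cells, 68.0 and 83.0 in construct cells, 73.6 and 81.7 in knockdown cells and 75.5 and 90.1 in double-modulated cells, 2225 reads in all. Its footprints numbered 3 and 1 in control cells, 0 and 0 in construct cells, 2 and 0 in knockdown cells and 1 and 1 in double-modulated cells, 8 reads in all. RNA was level across the 8 libraries and footprints were at or near 0 in each. A count of 0 in these footprint libraries allows 3.62 to 8.37 CPM, well under the RNA level. These floors and the intervals on pooled reads cover counting error only.

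The ratio of a gene's share of footprints to its share of RNA reads, pooled over the 8 libraries of each assay, puts the members on a scale that is independent of the tRNA comparisons. Total RNA counts reads over the untranslated ends as well, while ribosomes protect mostly coding sequence, so a gene's ratio also varies with its structure. Among 9170 protein-coding genes with at least 200 RNA reads the median ratio was 0.784, from 0.126 at the 5th to 5.53 at the 95th percentile. NFKB2 had a ratio of 4.21 (95% interval 3.70 to 4.80) and RELA of 3.76 (3.39 to 4.16), above 92.2% and 90.9% of these genes. NFKBIA followed at 2.36 (2.12 to 2.63), above 83.1%. NFKB1 was nearer the middle at 1.20 (1.08 to 1.34), above 65.1%, and its interval was apart from those of NFKB2 and RELA. LIF had fewer footprints than its RNA share, 0.511 (0.403 to 0.641).

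BIRC3 was at the other end, with a ratio of 0.0189 (0.00814 to 0.0373), a share of footprints 53.0-fold lower than its share of RNA. Of the 9170 genes 105 (1.15%) had a lower ratio. The 1164 genes whose RNA was within 1.25-fold of BIRC3's had a median of 265.5 footprints. Besides BIRC3, 8 of them had 8 or fewer. BIRC2, the neighbouring paralog that encodes cIAP1, had 347 footprints on 10581 RNA reads, a ratio of 0.172 (0.154 to 0.192), above 8.07% of genes. The ratio of BIRC3 was 0.0445 in control cells, 0 in construct cells (upper limit 0.0511), 0.0152 in knockdown cells and 0.0155 in double-modulated cells, with overlapping intervals. BIRC3 was singled out after its values were seen. HTSeq put alignments on a gene, on no gene, on ambiguous genes or at several places. Of these classes together, 97 to 98.8% in each file were alignments to several places, which it did not count. The part of such alignments in the BIRC3 value was not tested.

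The scarcer members have wide ratio intervals and fewer than 200 RNA reads, so they were not ranked. RELB had a ratio of 6.10 (4.28 to 8.70), IL6 of 2.91 (2.15 to 3.92), CXCL1 of 1.03 (0.442 to 2.12) and TNFAIP3 of 0.566 (0.309 to 0.967). REL, at 0.235 (0.154 to 0.345), had a far lower ratio than the other subunit genes, and its interval did not reach that of any of them.

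**Figure D2:**
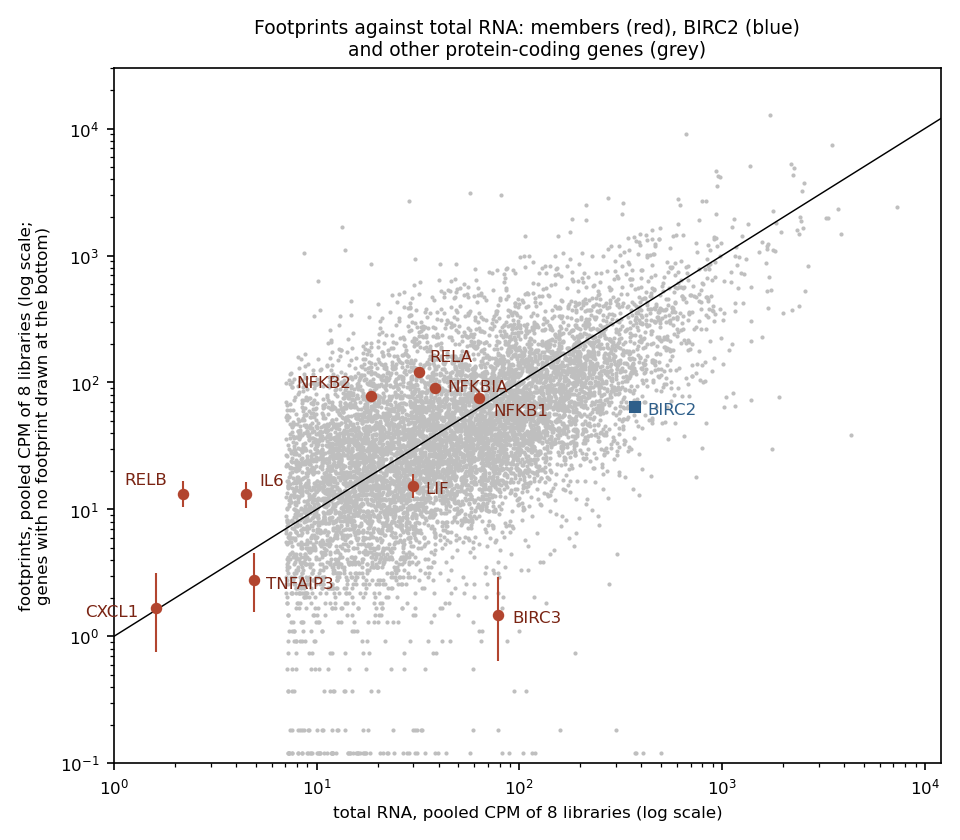
Pooled footprints (vertical, log scale) against pooled total RNA (horizontal, log scale), both in CPM over 8 libraries, for 9170 protein-coding genes (grey), the 10 NF-kB genes (red, with 95% counting intervals) and BIRC2 (blue); the line marks equal shares. BIRC3 lies far below the line with a ratio of 0.0189, while NFKB2, RELA, RELB, NFKBIA and IL6 lie above it.

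The tests across conditions covered the members that passed the filter on low counts: 7 of 10 in footprints (not TNFAIP3, BIRC3 or CXCL1), 8 of 10 in total RNA (not RELB or CXCL1) and 6 of 10 in translational efficiency, the footprint change beyond the RNA change. With the knockdown alone, 0 of 7 members were called in footprints at an adjusted p under 0.05, against 1.11% of all 8143 genes tested, and 0 of 8 in total RNA, against 0.0256% of 11720. In a fit of only the control and knockdown RNA libraries, 236 of 11008 genes were called for the knockdown, with 0 members among them. With the construct alone, 0 of 7 were called in footprints (background 0.0246%) and 0 of 8 in RNA (background 0%). The double modulation gave 0 of 7 in footprints (background 1.93%) and 0 of 8 in RNA (background 0.0683%). At these backgrounds a list of this size would hold few calls in any case, and a p that misses the threshold does not show that levels were equal.

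Averaged over both constructs, the GAU guide against the eGFP guide called 0 of 7 members in footprints (background 2.68%) and 0 of 8 in RNA (background 1.08%). With chromosome 7 genes left out, the guide called 106 of 7772 genes in footprints and 14 of 11115 in RNA, against 218 of 8143 and 126 of 11720. Footprint calls then were 42 for the knockdown and 98 for the double modulation, against 90 and 157. Of the members, IL6 lies on chromosome 7 and the others do not. Averaged over both guides, the construct called 0 of 7 in footprints (background 0.43%) and 0 of 8 in RNA (background 0%), and the interaction 0 of 7 (background 0.0614%) and 0 of 8 (background 0%). Translational efficiency had 0 of 6 members and 0% of 8012 genes called in each of the 6 comparisons by edgeR, with 215 to 372 genes at an unadjusted p under 0.05, and DESeq2 called 0 or 1 gene. No member's unadjusted p was under 0.05 apart from TNFAIP3 RNA, and DESeq2 called no member either. The median member difference in footprints was 0.03 for the guide and -0.15 for the double modulation (log2), against 0.01 and 0.01 over all genes tested. The comparisons with control share the control libraries.

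How tightly the data bound a change depended on the gene's reads. For the guide over both constructs, footprint intervals were 0.849 to 1.22-fold for RELA, 0.828 to 1.28-fold for NFKB1, 0.835 to 1.28-fold for NFKB2 and 0.757 to 1.13-fold for NFKBIA. They widened to 0.607 to 1.78-fold for RELB, 0.476 to 1.24-fold for LIF and 0.391 to 1.15-fold for IL6. In total RNA the interval was 0.907 to 1.25-fold for BIRC3 and 0.903 to 1.22-fold for NFKB1, and 0.853 to 1.89-fold for TNFAIP3.

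The spread in total RNA was estimated from all 8 libraries, so every RNA test and interval drew on the double-modulated pair that stood apart. With only the control and knockdown libraries fitted, the knockdown called 236 of 11008 genes in RNA, against 3 of 11720. Total RNA comparisons of double-modulated cells also rested on the values of that pair. Without replicate 2 of that pair, the count of genes called in RNA for the double modulation went from 8 to 1854, and without replicate 1 to 293, with 0 members among them either way. The nearest was RELA without replicate 2, at 0.51 ± 0.18 (log2, SE) with an adjusted p of 0.0553 by edgeR; without replicate 1 its value was -0.00090.

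The share of genes with at least 10 CPM on average whose libraries did not overlap was 7.08% by guide and 3.29% by construct in footprints, and 9.93% and 1.91% in total RNA, and none of the members above that level, 7 in footprints and 6 in total RNA, did so in any of the 4 splits.

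**Figure D3:**
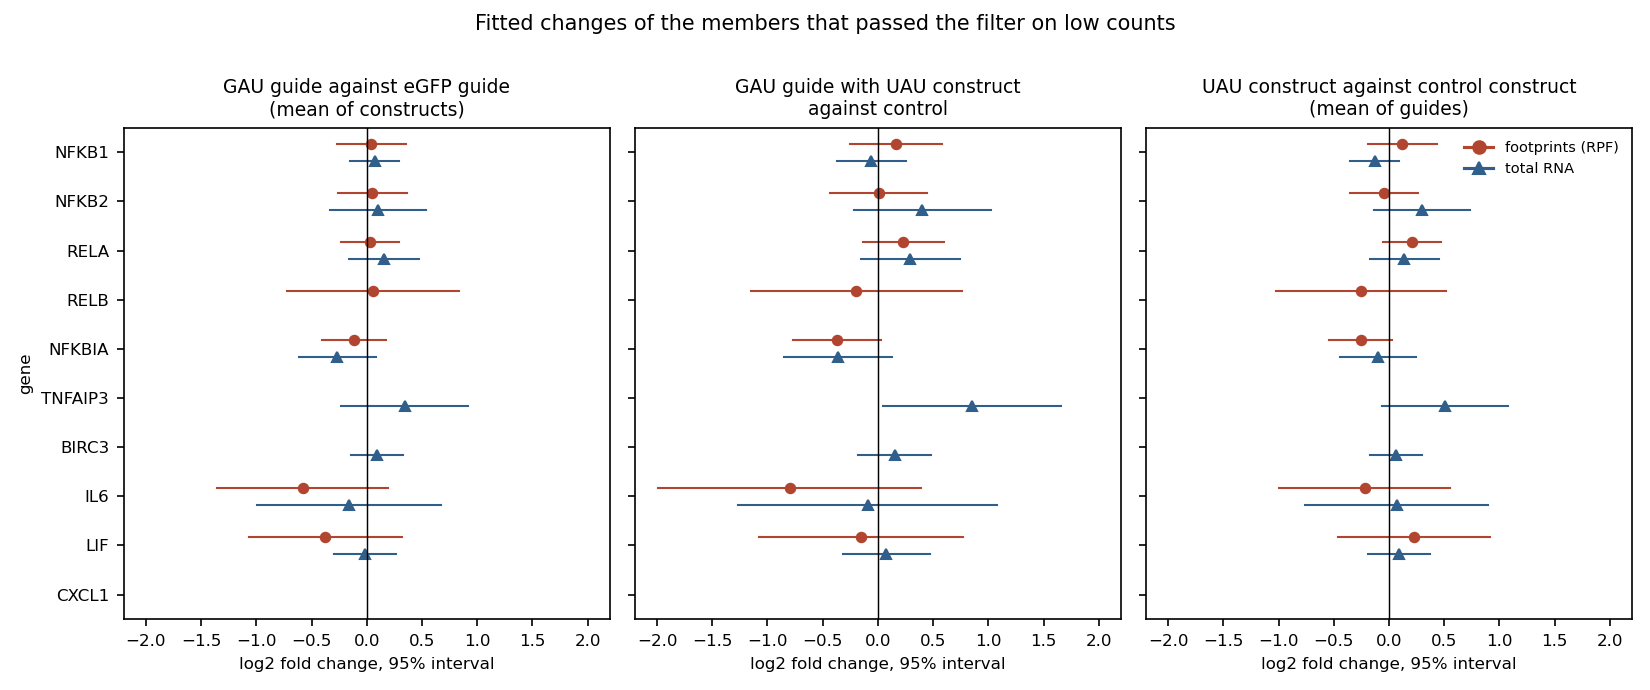
Fitted log2 fold changes (points) with 95% intervals (lines) of the members that passed the filter, in footprints (circles) and total RNA (triangles), for the guide over both constructs, the double modulation against control and the construct over both guides. All intervals include 0 except that of TNFAIP3 RNA in the double modulation (0.05 to 1.66), whose adjusted p was 0.630; rows without a symbol were not tested.

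Around the members stand 75 other listed genes: 26 receptors, adaptors and kinases, 11 further subunits, inhibitors and regulators, 29 further targets and 9 cytokine receptors and signal genes. Of these, 44 were tested in footprints, 56 in total RNA and 43 in translational efficiency. In footprints 2 of 44 fell and 0 rose with the GAU guide over both constructs, 4.55% against 2.68% of all genes, and 1 fell and 0 rose with the double modulation, 2.27% against 1.93%. None passed in the other 4 footprint comparisons, in total RNA or in translational efficiency by edgeR, where 0 to 7 of them had an unadjusted p under 0.05 per comparison. Over all genes, with those of chromosome 7 left out, footprint calls were 106 of 7772 for the guide and 98 for the double modulation.

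The receptor TNFRSF12A (Fn14, chr16:3020368-3022383), which binds TWEAK and feeds the noncanonical branch, had footprints of 224 and 231 CPM in control cells, 220 and 281 in construct cells, 163 and 182 in knockdown cells and 184 and 213 in double-modulated cells. All 4 libraries with the GAU guide were below all 4 with the eGFP guide. In footprints, 7.08% of genes with at least 10 CPM on average did not overlap by guide. The split uses the same counts as the test. The guide difference was -0.40 ± 0.11 (log2, SE; 0.654 to 0.879-fold), with an adjusted p of 0.0168 by edgeR. Its RNA was low, 5.80 to 18.9 CPM, and its ratio of footprints to RNA, 18.0 (15.9 to 20.5), was above that of 9141 of the 9170 genes. The RNA difference was 0.20 ± 0.30. The footprint call was lost with DESeq2 (adjusted p 0.313), with libraries thinned to equal depth (0.151) and without control replicate 1 (0.0669) or 2 (0.103), construct replicate 2 (0.397), knockdown replicate 1 (0.100) or double-modulated replicate 1 (0.110), with differences of -0.29 to -0.41 in these fits.

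MAP3K14 (chr17:45263119-45317020) encodes NIK, the kinase that starts the processing of p100 and is the substrate of cIAP2. It had footprints of 57.6 and 52.8 CPM in control cells, 61.4 and 66.9 in construct cells, 27.1 and 35.0 in knockdown cells and 40.5 and 42.2 in double-modulated cells, on 22 to 39 reads per library. Again the 4 libraries of each guide did not overlap, as for 7.08% of genes with at least 10 CPM on average. The guide difference was -0.75 ± 0.19 (log2, SE; 0.456 to 0.775-fold), with an adjusted p of 0.00894 by edgeR. In total RNA MAP3K14 was at -0.45 ± 0.20 with an adjusted p of 0.461, and in translational efficiency at -0.31 ± 0.28 with an adjusted p of 0.873. The footprint call was lost with DESeq2 (adjusted p 0.309), at equal depth (0.0680) and without control replicate 1 (0.0675), construct replicate 2 (0.119) or knockdown replicate 1 (0.0716), with values of -0.66 to -0.85 throughout. Without double-modulated RNA replicate 1 the RNA difference was -0.66. The double-modulated library left in that fit was the lower of its pair, 16.4 against 27.2 CPM.

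PLAU (chr10:73908832-73917494) encodes urokinase, a secreted protease and an NF-kB target. Its footprints were 1033 and 955 CPM in control cells, 926 and 898 in construct cells, 1044 and 923 in knockdown cells and 823 and 649 in double-modulated cells. Both double-modulated libraries were below the other 6, a split not counted over all genes. The double modulation differed from control by -0.44 ± 0.11 (log2, SE; 0.632 to 0.856-fold), with an adjusted p of 0.0109 by edgeR and 0.0354 by DESeq2. PLAU RNA was 319 and 312 CPM in control cells and 284 and 212 in double-modulated cells, a difference of -0.36 ± 0.13 with an adjusted p of 0.563. The footprint call was lost without control replicate 1 (adjusted p 0.241) or 2 (0.0882), without double-modulated replicate 2 (0.283) and at equal depth (0.114), with differences of -0.30 to -0.50 in these fits. Without double-modulated RNA replicate 1 the RNA difference was -0.55, a value that rests on the 1 library left in that group, the lower of the pair.

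**Figure D4:**
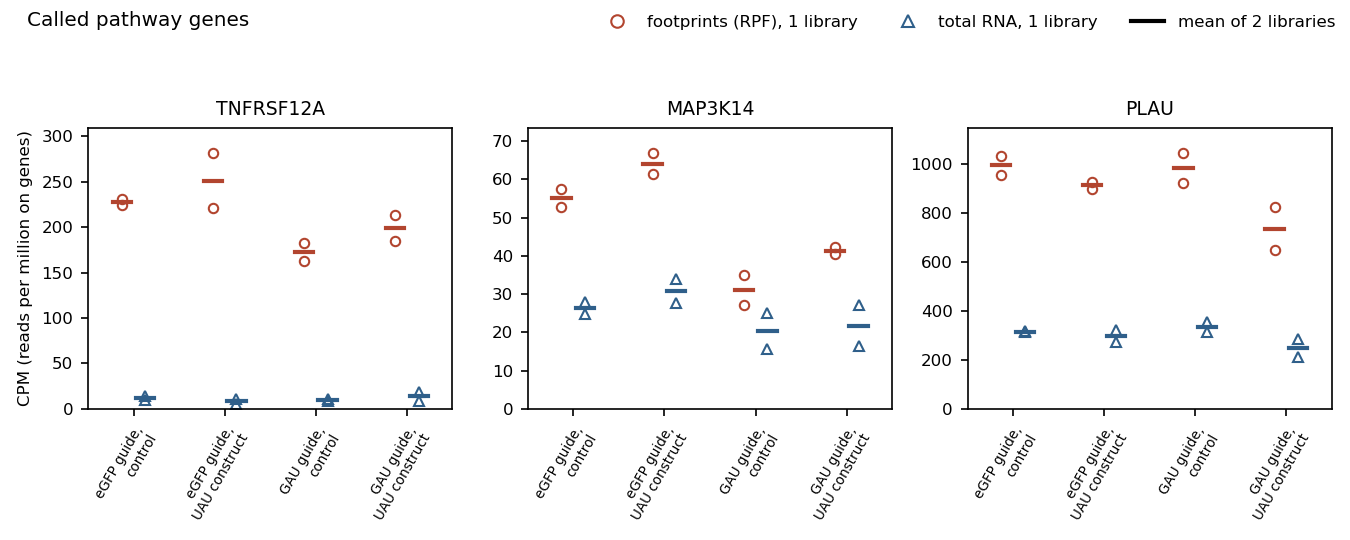
CPM (vertical axis, linear, from 0) of TNFRSF12A, MAP3K14 and PLAU by condition, with 1 circle per footprint library, 1 triangle per total RNA library and a bar at the mean of 2 libraries. Footprints of TNFRSF12A and MAP3K14 are lower in all 4 libraries with the GAU guide than in the 4 with the eGFP guide, and those of PLAU are lowest in the 2 double-modulated libraries. In footprints, 7.08% of genes with at least 10 CPM on average did not overlap by guide.

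The kinases that phosphorylate IkB proteins did not pass the test. IKBKB, the catalytic subunit of the canonical branch, had footprints of 36.2 to 46.3 CPM in the 4 eGFP guide libraries and 53.2 to 58.0 in the 4 GAU guide libraries. These ranges did not overlap, as for 7.08% of genes with at least 10 CPM on average. The difference of 0.48 ± 0.19 (log2, SE) had an adjusted p of 0.211 by edgeR. CHUK, the other catalytic subunit, was at 0.13 ± 0.23 and IKBKG, the regulatory subunit, at -0.09 ± 0.29.

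On the receiving side of the cytokines, the receptor LIFR had total RNA of 232 to 259 CPM with the eGFP guide and 149 to 195 CPM with the GAU guide. These ranges did not overlap, as for 9.93% of genes with at least 10 CPM on average in total RNA. The guide difference was -0.43 ± 0.10 (log2, SE) with an adjusted p of 0.0904 by edgeR, short of the threshold. It passed with DESeq2 (adjusted p 0.0154) and with no filter on low counts (edgeR, adjusted p 0.00065). Under these settings the genes called in RNA for the guide also rose, from 126 to 158 and to 486. It passed as well without either double-modulated RNA library, in fits that leave 1 library in that group. LIFR footprints were at -0.45 ± 0.21 with an adjusted p of 0.322. IL6ST, the signalling chain shared by IL6 and LIF, had footprints of 122 and 104 CPM in control cells, 123 and 120.0 in construct cells, 163 and 134 in knockdown cells and 141 and 75.1 in double-modulated cells. Both knockdown libraries were above both controls, a split not counted over all genes. The difference was 0.38 ± 0.18 with an adjusted p of 0.449 by edgeR. The double-modulated pair held the lowest value of the 8. Over both constructs the guide difference was 0.13 ± 0.14 in footprints and 0.09 ± 0.08 in total RNA.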

How the data were processed

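The deposited values are whole-number counts of reads for each gene symbol. The submitters' processing notes name HTSeq, STAR 2.5.2a, cutadapt 1.17 and the build hg38; order, settings, annotation, strand and HTSeq version are not given in the sources used here. Without strand, reads of NFKB1, RELA, TNFAIP3, IL6 and LIF cannot be told apart from those of overlapping antisense or divergent genes. A gene missing from a footprint file was given a count of 0, and HTSeq's summary lines stayed out. CPM is a count divided by the library's counts on genes, times 1000000.

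The 10 members, the pathway lists and the tests were chosen with earlier results of these data known. Named besides the members were pathway genes past the threshold and REL, IKBKB, CHUK, IKBKG, IL6ST and LIFR; BIRC2 was added after its values were seen, as the paralog of BIRC3. edgeR 4.0.16 in R 4.3.3 ran per assay on all 8 libraries (filterByExpr with minimum count 10 and minimum total 15, TMM, group means, quasi-likelihood test; biological coefficient of variation 6.71% in footprints and 14.2% in total RNA). Each gene's spread was moderated toward that of all genes, with 166 degrees of freedom in footprints and 9.57 in total RNA, against 4 residual. SE is the unshrunken log2 change divided by the square root of the test's F statistic. It is set around edgeR's shrunken change. Translational efficiency was the footprint change minus the RNA change in 1 fit of 16 libraries. Adjustment was by Benjamini-Hochberg over all genes tested, with a threshold of 0.05. Ratio intervals are exact binomial at 95%, and the floor for a count of 0 is 3 counts. DESeq2 1.42.0 and 22 other settings were alternatives. Gene positions and promoter sequences are from RefSeq tables of GRCh38.p14; 23758 symbols matched as current names, 1562 as older names and 1165 not at all.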

Additional observations from a re-analysis of the deposited data

How the results depend on the processing

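Under 23 alternative settings, 0 members were called in any of the 18 comparisons, with DESeq2, with other normalization, with no filter on low counts, with footprints thinned to the shallowest library (358340 counts), without chromosome 7 genes and without each library in turn; 34 adjusted p-values of DESeq2 were not given. With a replicate block, 0 members were called as well. Same-numbered footprint libraries deviated together at correlations of only -0.03 to 0.07. In total RNA the correlation was 0.52 between knockdown and double-modulated cells and -0.60 between construct and double-modulated cells. Some RNA libraries thus shared deviations, though not by 1 numbering across all groups, and the reason was not tested. Of 1974 member values under these settings, 1798 kept the sign of the reported value. When libraries were left out in turn, LIF footprints with the knockdown ran from -0.957 to 0.0413 (log2), RELA footprints with the construct from -0.0560 to 0.50, IL6 footprints with the double modulation from -1.50 to 0.59 and with the guide from -0.93 to 0.11, RELA RNA with the double modulation from -0.00090 to 0.51, and BIRC3 RNA from -0.0212 to 0.31. The cause was not tested. Counts over all genes moved more: footprint calls ran from 18 to 112 for the knockdown (90 reported), 35 to 209 for the double modulation (157), 63 to 264 for the guide (218), 7 to 55 for the construct over both guides (35), 0 to 8 for the construct alone (2) and 0 to 10 for the interaction (5). The lowest of these came without control replicate 2 for the knockdown and the double modulation, without construct replicate 2 for the construct over both guides and from DESeq2 for the guide. In total RNA they ran from 0 to 241 for the knockdown (3), 0 to 1854 for the double modulation (8), 6 to 1820 for the guide (126), 0 to 150 for the construct over both guides (0), 0 to 5 for the construct alone (0) and 0 to 520 for the interaction (0), each highest without a double-modulated library, for the construct alone also with no filter on low counts. Without any 1 of the 6 other RNA libraries, the guide count was 6 to 9. In translational efficiency they reached 613 for the double modulation, 406 for the guide, 51 for the construct and 82 for the interaction without a double-modulated RNA library, from 0. Depth limits TNFAIP3, BIRC3 and CXCL1 in footprints and RELB and CXCL1 in RNA, which were not tested there.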
